A study of Arabidopsis thaliana with 625 samples.

Results

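The EPF family peptides and SDD1 were followed through 621 single cells of Arabidopsis thaliana shoots. The 7 genes were taken by name from a table of 32833 genes: EPF2 (AT1G34245), EPF1 (AT2G20875), EPFL9 or STOMAGEN (AT4G12970), EPFL4 (AT4G14723), EPFL5 (AT3G22820), EPFL6 or CHAL (AT2G30370) and SDD1 (AT1G04110). All 7 had a row in the tables of both reporter lines. EPF peptides are small secreted signals with several disulfide bonds that tell neighbouring cells of the leaf epidermis whether to enter the stomatal lineage, the cells that end in the paired guard cells of a pore. They bind receptor kinases of the ERECTA family, which work with the receptor-like protein TMM and signal through the kinase YDA and its MAP kinases against the transcription factor SPCH. EPF2 restrains entry into the lineage, EPF1 keeps new stomata apart, EPFL9 from the inner leaf tissue promotes stomata, EPFL4, EPFL5 and EPFL6 are best known from stems, and SDD1 is a secreted subtilisin-like protease that lowers stomatal density.

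Cells came from aerial tissue of seedlings at 10 days post-germination that carried 1 of 2 transgenes. TMMp::TMM-YFP, an added copy of TMM fused to YFP under its own lineage promoter, gave 478 cells in pools of 142 and 336 on 7 plates. ATML1p::YFP-RCI2A, a membrane marker under an epidermal promoter, gave 143 cells in pools of 42 and 101 on 5 plates. Each cell was a full-length Smart-seq2 library, and 4 droplet samples of the series are not analysed here. Depth is given as genes listed at 1 TPM or more per cell (TPM are transcripts scaled to a common total), with a median of 2777 in TMMp and 3179 in ATML1p; plate ML2 of ATML1p stood apart at 1311 in its 17 cells. TPM keep no read depth, a gene listed at 0 may have been missed, and intervals on shares cover the counting of cells only. Nothing in the labels says that pools or plates were separate cultures, so a p-value reflects variation among these pools or plates alone and possibly technical variation. TMM, the defining marker of the lineage, was detected in 90.2% of TMMp cells, where the transgene adds to it, against 11.9% in ATML1p.

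A transcript counted as found in a cell at a TPM of at least 1. EPF2 was found in 58 of 478 cells in TMMp, against 5 of 143 in ATML1p. The cells with EPF1 numbered 50 in TMMp and 6 in ATML1p, and those with SDD1 numbered 42 in TMMp and 6 in ATML1p. EPFL9 had the opposite balance, with 2 cells in TMMp and 14 in ATML1p. The 3 stem peptides were close to undetected: EPFL4 was found in 1 TMMp cell at 74.7 TPM and in no ATML1p cell, and EPFL5 and EPFL6 were listed at 0 in every cell of both lines. With up to 3 cells allowed for a count of 0, the share could be up to 0.628% in TMMp and up to 2.1% in ATML1p. At least 1 of EPF2, EPF1 and SDD1 was found in 127 TMMp cells.

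The spread over plates sets how firmly the lines can be told apart. The share of cells with EPF2 had a lowest value of 4.35%, a median of 13.2% and a highest of 16.4% over the 7 TMMp plates, against 6.06%, 5.88%, 4.00%, 3.33% and 0% on the 5 ATML1p plates. EPF1 had 7.69%, 8.70% and 16.4% as lowest, median and highest over the TMMp plates, against 9.09%, 5.88%, 3.33%, 2.63% and 0% on the ATML1p plates. For EPF2 the TMMp plate TMM6 lay below 2 ATML1p plates and the other TMMp plates above all of them; for EPF1 the ATML1p plate ML1-6 lay above 4 TMMp plates and the other ATML1p plates below all of them. SDD1 had 3.95%, 7.94% and 13.7% over the TMMp plates, against 7.89%, 6.06%, 3.33%, 0% and 0% on the ATML1p plates. EPFL9 was found on 1 of 7 TMMp plates, at 3.08%, against 15.2%, 13.3%, 12.0%, 5.26% and 0% on the ATML1p plates. In a two-sided exact permutation test over all 792 splits of the 12 plates, with adjustment over 17725 genes, 8.11% of genes passed an adjusted p of 0.05. None of the 4 genes with enough cells for this test did. All 4 had an unadjusted p under 0.05, as did 4399 of the 17725 genes. In this permutation test EPF2 differed by 8.29 percentage points (adjusted p = 0.0620), EPF1 by 6.21 (adjusted p = 0.0897) and SDD1 by 5.39 (adjusted p = 0.147). EPFL9 differed by -8.71 (adjusted p = 0.0788). It met the limit of 10 cells for this test only through ATML1p, so its p-value carries no weight.

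**Figure D1:**
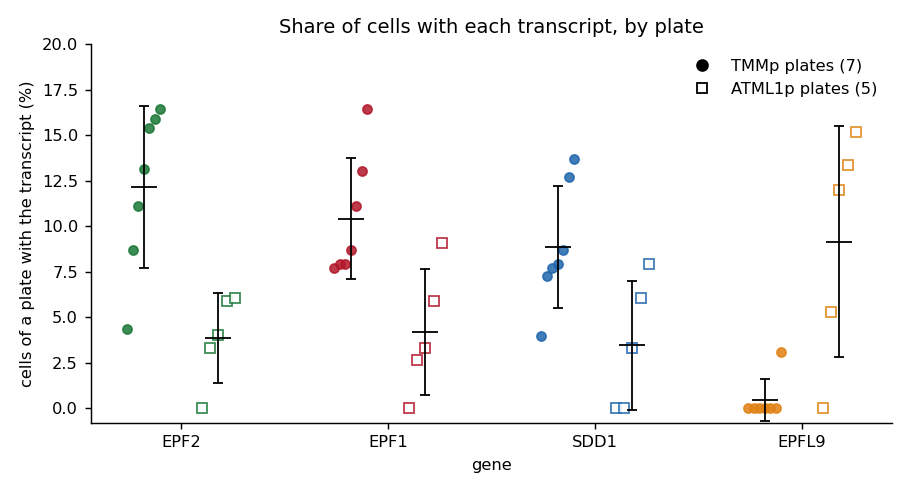
Percentage of the cells of a plate in which EPF2, EPF1, SDD1 or EPFL9 was found (y axis); each filled circle is 1 of 7 TMMp plates and each open square 1 of 5 ATML1p plates, with black lines for mean and SD. EPF2, EPF1 and SDD1 average 12.1%, 10.4% and 8.85% over the TMMp plates against 3.86%, 4.19% and 3.46% over the ATML1p plates, and EPFL9 averages 0.440% against 9.15%.

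Mean levels over all cells of a pool gave the same picture with fewer units. EPF2 averaged 25.5 and 55.0 TPM in the TMMp pools, against 11.4 and 4.05 TPM in the ATML1p pools. EPF1 averaged 21.7 and 21.0 TPM in the TMMp pools, against 7.37 and 6.05 TPM in the ATML1p pools. The share of cells with EPF1 was 10.5% in TMMp and 4.2% in ATML1p, and its median in the cells that held it was 105 TPM in TMMp and 126 TPM in ATML1p. For EPF2 the shares were 12.1% in TMMp and 3.5% in ATML1p, with medians of 178 TPM in TMMp and 114 TPM in ATML1p. SDD1 averaged 95.3 and 64.4 TPM in the TMMp pools, against 0 and 29.5 TPM in the ATML1p pools, the first of which is listed at 0. EPFL9 averaged 0 and 0.228 TPM in the TMMp pools, against 2.2 and 7.83 TPM in the ATML1p pools, and met the filter on low values through the ATML1p pools only. The pools of the lines did not overlap for any of the 4 genes. With 2 pools per line this carries no weight, and the share of all genes separated in this way is not given here. With limma on log2(TPM + 1) over the 4 pools, 2.34% of 18390 genes passed, and the 4 members that met the filter on low values did not, with adjusted p between 0.115 for EPF2 and 0.179 for EPF1. The ATML1p cells included 49 photosynthesis-high cells, defined later, against 14 in TMMp. Without them the difference in EPF2 share was 5.86 percentage points (adjusted p = 0.201 in the exact permutation test), and the part of these cells in the difference was not tested further.

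To place the signals along the lineage, each cell was put in 1 class by the first it held of 5 stage genes, taken in a fixed order that is not in all steps that of development. The genes were FAMA, needed for guard cell fate, then MUTE, which turns a meristemoid into a guard mother cell. Next came SPCH, which starts the lineage, then MYB60, a guard cell transcription factor, then POLAR, a polarity protein of asymmetrically dividing cells. Among TMMp cells 55 fell in the FAMA class, 34 in the MUTE class, 55 in the SPCH class, 25 in the MYB60 class and 59 in the POLAR class, and 250 held no stage gene. Cells with a stage gene were also the deeper ones: the median was 4308 genes in FAMA cells, 4276.5 in MUTE cells, 3813 in SPCH cells, 3119 in MYB60 cells, 3067 in POLAR cells and 2299.5 in cells with none. Class contrasts in which a member passed are therefore given also with the number of genes per cell in the model, called depth-adjusted here. EPF2, EPF1 and SDD1 met the filter of presence in 5% of TMMp cells, so 3 of the 7 members could be tested across classes, and EPFL9 and EPFL4 were found there only in cells with no stage gene.

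**Figure D2:**
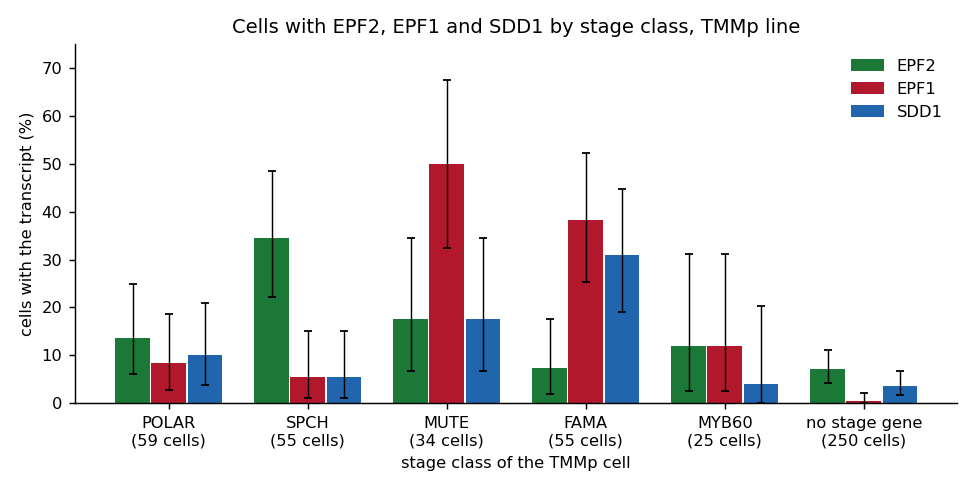
Percentage of TMMp cells of each stage class in which EPF2, EPF1 or SDD1 was found (y axis), with exact 95% intervals as error bars and the number of cells under each class. EPF2 is highest in SPCH cells (34.5%), EPF1 in MUTE cells (50%) and SDD1 in FAMA cells (30.9%).

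EPF2 was most frequent in SPCH cells. It was found in 19 of 55 SPCH cells (34.5%, exact 95% interval 22.2% to 48.6%), with 14.3%, 30% and 80% as the lowest, median and highest plate, and in 18 of 250 cells with no stage gene (7.2%, 4.32% to 11.1%). In order, the share was 34.5% in SPCH, 17.6% in MUTE, 13.6% in POLAR, 12% in MYB60, 7.27% in FAMA and 7.2% in cells with none, and the intervals of every pair of neighbours in this order overlapped. The mean level was 150.3 TPM in SPCH cells and 18.5 TPM in cells with no stage gene, and the SPCH cells that held EPF2 had between 26.2 and 1601 TPM, with a median of 181 TPM.

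EPF2 was higher in SPCH cells than in cells with no stage gene on 7 of 7 plates, with within-plate differences in mean log2(TPM + 1) between 0.59 and 5.42. The limma estimate was 2.13 ± 0.42 (SE, 7 plates; adjusted p = 0.000865), and depth-adjusted 1.66 (adjusted p = 0.0182). In this contrast 36.8% of 13176 genes passed, 17.7% with depth in the model, and the median of all genes was 0.53 higher, so the EPF2 difference was larger than the general shift but its call was not a rare one. The remaining contrasts with cells lacking a stage gene did not pass for EPF2: 0.37 ± 0.39 for POLAR, 0.90 ± 0.54 for MUTE, 0.55 ± 0.62 for MYB60 and -0.01 ± 0.31 for FAMA cells.

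Within the SPCH class, EPF2 went with POLAR. It was found in 15 of 29 SPCH cells that also held POLAR (51.7%, 32.5% to 70.6%) and in 4 of 26 that did not (15.4%, 4.36% to 34.9%). This split was chosen after the values were seen and was not tested; the cells with both genes were also deeper, with a median of 5084 genes against 3041.5. Of the 59 POLAR cells without SPCH, MUTE, FAMA or MYB60, 8 held EPF2.

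EPF1 was most frequent in the MUTE and FAMA classes. It was found in 17 of 34 MUTE cells (50%, 32.4% to 67.6%), with 20%, 50% and 100% as the lowest, median and highest plate. In FAMA cells it was found in 21 of 55 (38.2%, 25.4% to 52.3%), with 20%, 44.4% and 50% over plates. In the cells with no stage gene it was found in 1 of 250 (0.4%, 0.0101% to 2.21%). The order was 50% in MUTE, 38.2% in FAMA, 12% in MYB60, 8.47% in POLAR, 5.45% in SPCH and 0.4% in cells with none, again with overlapping intervals between neighbours. Mean levels were 154 TPM in MUTE cells, 57.3 TPM in FAMA cells, 6.54 TPM in SPCH cells and 0.213 TPM in cells with none.

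Against cells with no stage gene, the EPF1 difference in mean log2(TPM + 1) was 3.72 ± 0.44 in MUTE cells (SE, 6 plates with at least 3 cells of each class; limma adjusted p = 7.00e-05) and 2.47 ± 0.32 in FAMA cells (7 plates; adjusted p = 2.62e-05). It was positive on every plate, between 1.69 and 5.25 for MUTE and between 1.18 and 3.63 for FAMA. Depth-adjusted values were 3.51 (adjusted p = 0.000343) and 2.31 (adjusted p = 9.28e-05). The background was wide here too: 29.0% of genes passed in the MUTE contrast (14.7% depth-adjusted), where the median gene was 0.62 higher, and 46.9% in the FAMA contrast (23.9% depth-adjusted), where the median gene was 0.68 higher. EPF1 did not pass in POLAR cells (0.53 ± 0.24), SPCH cells (0.28 ± 0.29) or MYB60 cells (0.86 ± 0.52). Since EPF1 is listed at 0 in nearly all cells with no stage gene, these differences depend on the pseudocount and are not folds.

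Both later classes were also set against SPCH cells directly. EPF1 was higher in MUTE than in SPCH cells on 6 of 6 plates, by 3.47 ± 0.52 (limma adjusted p = 0.0184), where 0.175% of genes passed, but the call was lost with depth in the model (2.86, adjusted p = 0.169, where 0.0455% of genes passed) and without any 1 of the 6 plates (adjusted p 0.0503 to 0.202). In FAMA against SPCH cells, where 12.5% of genes passed (8.21% higher, 4.33% lower, and 9.47% in all with depth in the model), EPF1 was higher by 2.23 ± 0.42 (7 of 7 plates; adjusted p = 0.00288), SDD1 was higher by 2.82 ± 0.61 (6 of 7 plates; adjusted p = 0.00710) and EPF2 was lower, at -2.23 ± 0.53 (7 of 7 plates; adjusted p = 0.0121). Depth-adjusted, these were 2.43 (adjusted p = 0.00441), 2.32 (adjusted p = 0.0227) and -3.06 (adjusted p = 0.0125). Without plate TMM-2 the SDD1 and EPF2 calls missed the threshold, at adjusted p = 0.0761 and 0.0708, with differences of 2.63 and -2.21.

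**Figure D3:**
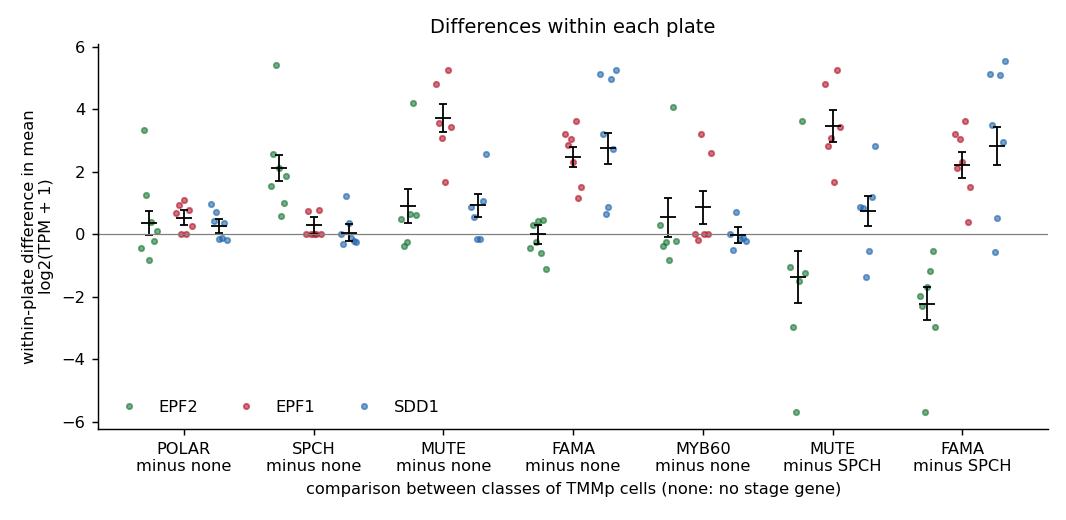
Difference in mean log2(TPM + 1) between 2 classes of TMMp cells within a plate (y axis) for EPF2, EPF1 and SDD1 in 7 comparisons (x axis); each point is a plate and black marks give the limma estimate with its SE. EPF2 lies above 0 on all 7 plates only for SPCH cells, and EPF1 lies above 0 on every plate for MUTE and FAMA cells.

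The shares of EPF1, SDD1 and EPF2 were higher in MUTE cells with SPCH than in those without. In the FAMA class they were higher in cells with MYB60. Cells without that gene could still hold another stage gene. In the MUTE class EPF1 was found in 11 of 14 cells that still held SPCH (78.6%, 49.2% to 95.3%) and 6 of 20 that did not (30%, 11.9% to 54.3%). In the FAMA class it was found in 18 of 38 cells with MYB60 (47.4%, 31.0% to 64.2%) and 3 of 17 without (17.6%, 3.8% to 43.4%). SDD1 was found in 35.7% of MUTE cells with SPCH and 5% of those without, and in 36.8% of FAMA cells with MYB60 and 17.6% of those without. EPF2 was found in 28.6% of MUTE cells with SPCH and 10% of those without, and in 7.89% of FAMA cells with MYB60 and 5.88% of those without. MUTE cells with SPCH and FAMA cells with MYB60 were the deeper ones, with medians of 4814 against 3389 genes and of 4697.5 against 3359 genes. The splits, chosen after the values were seen, were not tested.

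SDD1 was most frequent in FAMA cells. It was found in 17 of 55 FAMA cells (30.9%, 19.1% to 44.8%), with 8.33%, 40% and 75% as the lowest, median and highest plate, and in 9 of 250 cells with no stage gene (3.6%, 1.66% to 6.72%). The share was 17.6% in MUTE, 10.2% in POLAR, 5.45% in SPCH and 4% in MYB60 cells, and the intervals of neighbours in the order overlapped. FAMA cells were 2.75 ± 0.50 above cells with no stage gene in mean log2(TPM + 1), on 7 of 7 plates (limma adjusted p = 0.000418; depth-adjusted 2.15, adjusted p = 0.00221). The plates ran from 0.65 to 5.27. Of all genes 46.9% passed in this FAMA contrast (23.9% depth-adjusted), and the median gene was 0.68 higher. MUTE cells, at 0.93 ± 0.38 where the median gene was 0.62 higher, did not pass (limma adjusted p = 0.0813). Nor did POLAR (0.26 ± 0.22), SPCH (0.05 ± 0.27) or MYB60 cells (-0.01 ± 0.25).

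Very high SDD1 levels were found in FAMA cells alone. In TMMp 9 cells had SDD1 at 1000 TPM or more, all 9 in the FAMA class, on 5 plates, and they carried 88.2% of all SDD1 TPM of the line. The 1 ATML1p cell above 1000 TPM, at 2417 TPM, was also in the FAMA class. The mean was 599 TPM in FAMA cells and 4.1 TPM in cells with no stage gene. FAMA cells with SDD1 had a median of 1010 TPM and a maximum of 6531 TPM, whereas the medians in the other classes with more than 1 such cell were between 38.2 and 72.4 TPM. EPF1 reached at most 847 TPM in any cell. EPF2 was at 1000 TPM or more in 4 TMMp cells, 2 of the SPCH class, 1 of the MUTE class and 1 with no stage gene, none of the FAMA class. The limit of 1000 TPM was set after seeing the values.

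**Figure D4:**
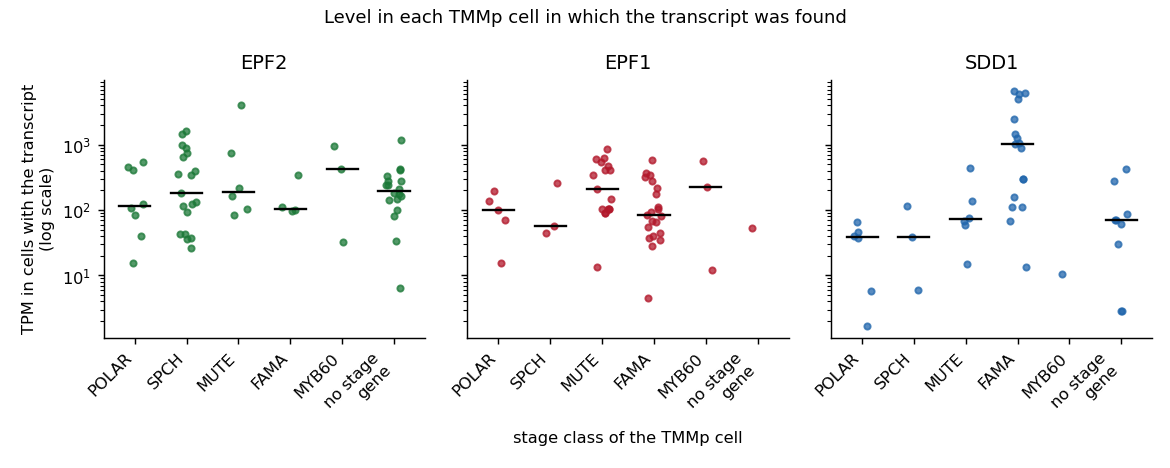
TPM (log scale) of EPF2, EPF1 and SDD1 in each TMMp cell in which the transcript was found, by stage class; points are cells and black lines are medians of classes with at least 3 such cells. SDD1 spans 13.4 to 6531 TPM in FAMA cells, and every SDD1 value of at least 1000 TPM lies there.

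EPF1 and SDD1 were often found in the same cell. EPF1 was present in 6 of 58 TMMp cells with EPF2 (10.3%) and in 10.5% of cells without EPF2. SDD1 was present in 16 of 50 cells with EPF1 (32%) and in 6.07% of cells without it, and 9 of these 16 cells were in the FAMA class and 5 in the MUTE class. Within a class the counts are for cells with EPF1 and for all cells of the class, which include them. They are thus not the same contrast. SDD1 was present in 9 of 21 FAMA cells with EPF1 and in 17 of all 55 FAMA cells. For MUTE cells the counts were 5 of 17 and 6 of all 34. The part of the stage class was not tested. EPF2 and SDD1 shared 2 cells. In limma contrasts of cells with and without a member, SDD1 was 1.98 ± 0.38 higher with EPF1 (6 of 7 plates; adjusted p = 0.000890; depth-adjusted 1.44, adjusted p = 0.0378), and EPF1 was 2.04 ± 0.41 higher with SDD1 (6 of 7 plates; adjusted p = 0.00252; depth-adjusted 1.49, adjusted p = 0.0624). With the same test, 35.1% of genes passed for EPF1 and 21.7% for SDD1, and 4.21% and 2.22% with depth in the model. EPF2 did not pass in cells with SDD1 (-0.74 ± 0.35, adjusted p = 0.139) or in cells with EPF1 (-0.07 ± 0.39). Depth-adjusted, its limma difference was -1.18 with SDD1 (lower on 7 of 7 plates, adjusted p = 0.0932). With EPF1 it was -0.63 (lower on 5 of 7 plates, adjusted p = 0.429).

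Few ATML1p cells held these signals. Of the 6 cells with EPF1, 4 were in the FAMA class and 1 in the MUTE class, and none lacked a stage gene, although 115 of the 143 ATML1p cells did. The 5 cells with EPF2 lay 1 each in the SPCH, MUTE, FAMA and MYB60 classes and among cells with none. Of the 6 cells with SDD1, 2 were in the FAMA class. FAMA was found in 17 ATML1p cells, and EPF1 was present in 4 of them (23.5%, exact 95% interval 6.81% to 49.9%), against 38.2% of TMMp FAMA cells, a difference that was not tested.

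EPFL9 was found in ATML1p cells rich in photosynthesis transcripts and in no other ATML1p cell. A cell was called photosynthesis-high when 40 genes of the light-harvesting complexes, photosystems and carbon fixation summed to 20000 TPM or more, which held for 49 of 143 ATML1p cells. EPFL9 was found in 14 of these 49 (28.6%, 16.6% to 43.3%) and in 0 of the other 94, which allows a share of up to 3.19%. Median depth was 3116 genes in the photosynthesis-high cells and 3189 in the others. By plate the counts were 3 of 11 on ML1, 4 of 17 on ML1-5, 5 of 10 on ML1-6, 2 of 7 on ML1-7 and 0 of 4 on the shallow plate ML2. In mean log2(TPM + 1) the photosynthesis-high cells were 1.56 ± 0.31 above the others (SE, 5 plates), higher on 4 plates and at 0 in both on ML2. EPFL9 met the filter on low values only through the photosynthesis-high cells, so the difference is a description with no test, and against a group listed at 0 no fold is given.

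The 14 cells had EPFL9 between 6.40 and 273 TPM, with a median of 43.8 TPM, 12 of them had a photosynthesis sum above 100000 TPM, and 13 held no stage gene. EPFL9 was found in 12 of 31 cells above 100000 TPM (38.7%, 21.9% to 57.8%), in 2 of 18 between 20000 and 100000 TPM (11.1%, 1.38% to 34.7%), in 0 of 32 between 5000 and 20000 TPM and in 0 of 62 below that. Only 5 ATML1p cells lay between 16000 and 24000 TPM, near the limit, and none held EPFL9. In TMMp 14 cells were photosynthesis-high, and 1 of them, with a sum of 226306 TPM, held EPFL9 at 71.5 TPM. The other TMMp cell with EPFL9 had 5.24 TPM and a sum of 1119 TPM. Both were on plate TMM5 and neither held a stage gene.

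**Figure D5:**
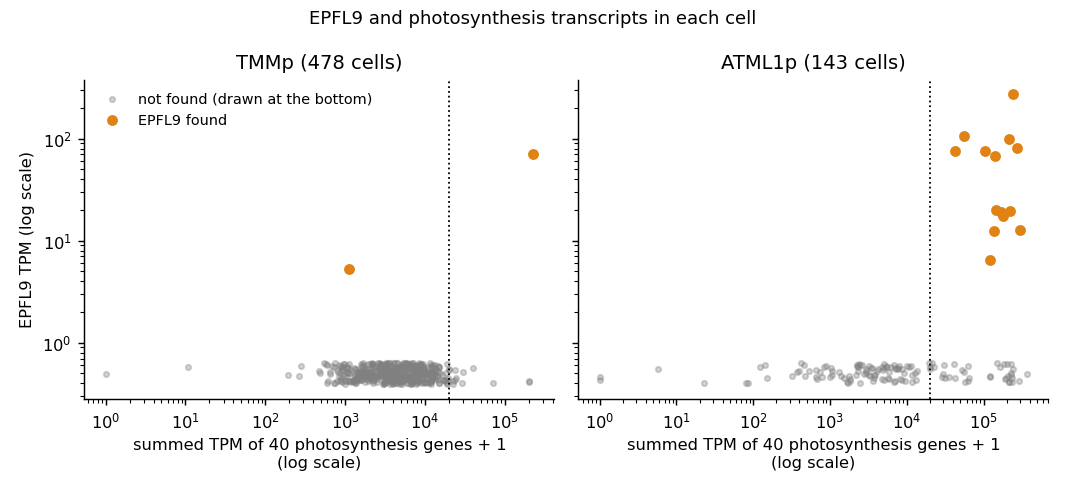
EPFL9 TPM (y axis, log scale) against the summed TPM of 40 photosynthesis genes (x axis, log scale) for each TMMp and ATML1p cell; cells without EPFL9 are drawn at the bottom with random height, and the dotted line is the limit of 20000 TPM. All 14 ATML1p cells with EPFL9 and 1 of 2 TMMp cells with it lie to the right of the limit.

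Epidermal markers were lower in the photosynthesis-high ATML1p cells than in the rest of this epidermal sort, a description with no test. PDF1, an epidermal cell-layer gene, was listed at 0 in all 49 and found in 16.0% of the other ATML1p cells, and ATML1 was found in 30.6% against 72.3%. YFP was found in 32.7% of them and 78.7% of the others, and their log2 reporter signal in the sorter was 12.2 ± 0.32 against 13.0 ± 0.34 (SD, n = 5 plates). Of 7 epidermis markers 6 were found in at least 1 photosynthesis-high cell, with plate means of their sum between 1.31 and 164 TPM, against 308 to 913 TPM in the other cells. Of 7 vasculature markers 5 were found, with plate means between 2.65 and 841 TPM against 0.952 to 89.6 TPM. APL and XCP1 were at 0. Of 4 trichome markers GL2, GL1 and GL3 were at 0. EPF2 and EPF1 were found in 0 of the 49, which allows up to 6.12%, and SDD1 in 1.

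In TMMp cells with EPF2, set against those without, 8.17% of 13175 genes passed with limma, 0.44% with depth in the model, and 57 genes passed both with and without depth in the model, 43 higher and 14 lower. Of the 8 largest of these increases 7 were genes with a histone product. HTB1, a histone H2B gene, averaged 185 TPM in cells with EPF2 and 34.6 TPM in the others (3.01 ± 0.40 in log2(TPM + 1), 7 of 7 plates, adjusted p = 3.96e-05). HTA10, a histone H2A gene, averaged 469.7 TPM against 99.2 TPM. The eighth was AT2G19730, a ribosomal protein gene, found in 96.6% of cells with EPF2 and 64.3% of the others. Histone genes have near-identical copies between which reads can be split, so values of single histone genes are uncertain. Among the 8 largest decreases were AOC3, an enzyme of jasmonate synthesis (-2.81 ± 0.53, 6 of 7 plates), CML38, a calmodulin-like protein (-2.37 ± 0.46), and BCB, a blue copper protein (-2.84 ± 0.48).

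For EPF1, 544 genes passed both ways, 376 higher and 168 lower. Among the 8 largest increases UGE3, an epimerase that makes UDP-galactose, averaged 818 TPM against 194 TPM, AT4G13710, a pectin lyase-like protein, 521 TPM against 59.5 TPM, and TUA4, an alpha-tubulin, 889 TPM against 249 TPM. AT1G07847, with no product in the reference, was found in 100% of cells with EPF1 and 39.7% of the others. Among the decreases were AT4G39670, a glycolipid transfer protein (137 TPM against 2503 TPM), BCB (887 against 2727 TPM) and UGT73B5, a glucosyltransferase (288 against 1586 TPM), each lower on 7 of 7 plates.

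For SDD1, 289 genes passed both ways, 241 higher and 48 lower. NEK5, a NIMA-related kinase, averaged 431 TPM in cells with SDD1 and 23.7 TPM in the others (4.02 ± 0.60, 7 of 7 plates, limma adjusted p = 0.000498), and AT1G51405, annotated as myosin-like, 296 TPM against 4.90 TPM. TUB7, a beta-tubulin, and MAT3, which makes S-adenosylmethionine, were also among the 8 largest increases. PEN2, a defence-related glucosinolate hydrolase, and BCB were among the decreases. The top increases of EPF1 and SDD1 shared AT4G13710, those of EPF2 shared none with either, and BCB was among the top decreases of all 3; largely the same cells without a member serve in all 3 contrasts, so these overlaps carry no test. Cells with a member were deeper than cells without, with a median of 3504 against 2683 genes for EPF2, 4695 against 2636 for EPF1 and 4381.5 against 2670 for SDD1.

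In ATML1p the contrast of 12 cells with EPFL9 and 76 without, on the 3 plates with at least 3 such cells, called 5.72% of 14069 genes, 4.12% with depth in the model, and 499 passed both ways, 473 higher and 26 lower. Of the 8 largest increases 7 were among the 40 photosynthesis genes, led by LHCB1.2 (a mean of 6433 TPM over all 14 cells with EPFL9 against 896 TPM over the other ATML1p cells), LHCB1.1 and RBCS2B. GSTU7, a glutathione transferase, and OPR1, an oxophytodienoate reductase, were among the decreases. Since every cell with EPFL9 was photosynthesis-high, the contrast was repeated within the photosynthesis-high cells of the same plates, 12 with and 26 without. With limma 0% of genes passed there, 1233 of 14069 had an unadjusted p under 0.05, and cells with EPFL9 were the deeper ones: in the whole line their median was 4660 genes against 3021. Without plate ML1 or ML1-5 the first contrast called 0 genes, and without ML1-6 it called 1.

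The genes most alike in pattern were named by the mean within-plate Pearson correlation of log2(TPM + 1) across cells, a description that shares library and depth. Over 478 TMMp cells, EPF2 was followed by BASL, the polarity protein of asymmetric divisions (r = 0.40), CRF2, a cytokinin response factor (0.39), HMGB6, the histone gene AT3G45930 and RR16, a cytokinin response regulator (0.34). EPF1 was followed by AT4G13710 (0.51), NEK5 (0.50), AT1G51405, UGE3 and AT4G20760 (0.46). SDD1 had the closest followers in TMMp, AT1G51405 (0.66), AT3G15550, AT5G15190, the mitotic kinase AUR1 (0.55) and AT3G17640 (0.54). Over 4 ATML1p plates EPFL9 was followed by XK-1, a xylulose kinase (0.63), AT1G64150 and 3 more genes down to 0.59.

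Receptors and downstream parts of the pathway were followed through a list of 26 genes, 19 of which met the filter in TMMp. Cells with no stage gene hold no SPCH, MUTE or FAMA by rule, so those 3 are left out of the counts that follow. In SPCH cells 8 of the other 16 rose and none fell, against 32.1% and 4.68% of all genes. In MUTE cells 7 rose and 1 fell, against 25.6% and 3.33% of all genes, and in FAMA cells 8 rose and 1 fell, against 41.3% and 5.63%. The median difference of these 16 was 0.88, 0.84 and 0.85 in SPCH, MUTE and FAMA cells, against 0.53, 0.62 and 0.68 for all genes. Among receptors ERL1 and ERL2, kin of ERECTA, were 2.31 ± 0.45 and 2.54 ± 0.44 higher in SPCH cells (limma adjusted p = 0.000681 and 0.000256) and 2.76 ± 0.44 and 2.92 ± 0.51 higher in MUTE cells (adjusted p = 0.000661 and 0.00115), and all 4 calls held with depth in the model. ER was found in 38.2% of SPCH cells but in 3.64% of FAMA cells, and FAMA cells were lower than SPCH cells by -1.76 ± 0.51 for ER (adjusted p = 0.0341) and -1.60 ± 0.49 for ERL2 (adjusted p = 0.0455). SCRM and SCRM2, the partners of SPCH, MUTE and FAMA, were higher in all 3 classes, by 3.21 to 4.73. The gene that fell was BKK1, a coreceptor kinase of the SERK family, in MUTE cells (-2.08 ± 0.62, adjusted p = 0.0241) and in FAMA cells (-2.44 ± 0.48, adjusted p = 0.000854), with limma. Apart from the 4 calls of ERL1 and ERL2, the counts and values for these 3 classes are given here without depth in the model only. In POLAR cells 2 of the 16 passed, TMM and MPK3, where 5.77% of all genes did. Neither passed with depth in the model, where 0.266% of genes did. In MYB60 cells none passed with limma, where 0.00759% of all genes did. There 4 of the 16 had an unadjusted p under 0.05, as did 1971 of all 13176 genes.

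Of the other peptides on that list, AT1G71866, annotated as an EPIDERMAL PATTERNING FACTOR-like protein, was the only 1 found in more than 4 TMMp cells. It was found in 58 TMMp cells, in 29.4% of MUTE cells, 27.3% of FAMA cells, 18.2% of SPCH cells and 4.8% of cells with no stage gene, and in 13 ATML1p cells. It rose in SPCH cells (0.93 ± 0.34, limma adjusted p = 0.0400; with depth in the model adjusted p = 0.117), in MUTE cells (1.54 ± 0.42, adjusted p = 0.0154; with depth 0.0512) and in FAMA cells (1.48 ± 0.34, adjusted p = 0.00252; with depth 0.0425). It was also higher in cells with EPF1 (2.03 ± 0.38, adjusted p = 0.000698; with depth 0.0180) and in cells with SDD1 (2.04 ± 0.38, adjusted p = 0.00151; with depth 0.0357). AT5G10310 was found in 4 TMMp cells, AT3G13898 in 1, and AT4G37810, AT1G80133 and the protease SBT5.2 in none; SBT5.2 was found in 3 of 49 photosynthesis-high ATML1p cells and 0 of the other 94.

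In photosynthesis-high ATML1p cells 1 of 15 tested pathway genes rose and 2 fell, where 23.7% of 14070 genes passed (27.2% with depth in the model), 14.9% of all genes rose and 8.76% fell; their median difference was -0.32, against -0.08 for all genes. MPK3 rose (2.87 ± 0.69, limma adjusted p = 0.00269), and the coreceptor BAK1 (-2.0 ± 0.64, adjusted p = 0.0220) and FAMA (-1.10 ± 0.39, adjusted p = 0.0380) fell. ER was found in 14.3% of the photosynthesis-high cells and 8.51% of the others, while ERL1 was found in none and in 6.38%.

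The sorter recorded brightness and scatter for each cell. TMMp cells with EPF2 had a log2 reporter signal of 11.2 ± 0.23, against 10.9 ± 0.09 for cells without (SD of plate means, n = 7), 0.31 ± 0.10 higher with limma (7 of 7 plates; adjusted p = 0.0107). That call was lost with depth in the model (0.20, adjusted p = 0.228) and without plate TMM-2 or TMM3 (0.25, adjusted p = 0.0710 and 0.0679). Cells with SDD1 had a side scatter of 10.9 ± 0.10 against 10.5 ± 0.16, 0.38 ± 0.11 higher (7 of 7 plates; adjusted p = 0.00366), and depth-adjusted 0.10 (adjusted p = 0.667). Without depth in the model 31.7% of 13159 genes passed for reporter signal and 59.8% for side scatter (2.53% and 2.89% with depth), so neither call stands above the background. EPF1 did not pass for reporter signal (-0.05 ± 0.10; depth-adjusted -0.30, limma adjusted p = 0.0536) or side scatter (0.22 ± 0.10, adjusted p = 0.0585; depth-adjusted -0.12, adjusted p = 0.536), and no member passed for forward scatter, where 50.1% of genes did.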

How the data were processed

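Arabidopsis cells were profiled with Smart-seq2 and a scaled-down Nextera XT preparation, per the labels' protocols. The authors deposited TPM values for every gene in each cell and, for the same cells, log2 sorter signals. The submitters' processing notes name TAIR10 and Cell Ranger without a role, and how the TPM were made is not given in the sources used here. Members, gene lists and comparisons were chosen with earlier results of these data known.

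Depth was taken as the genes found per cell (TPM of 1 or more). Pool means, as log2(TPM + 1), were filtered at a mean of 1 TPM in 2 pools and compared with limma 3.58.1 (R 4.3.3, eBayes with trend). Classes of cells were compared within plates with at least 3 cells on each side, for genes found in 5% of the line's cells. The within-plate differences were weighted by cell numbers and tested against 0 with limma, with Benjamini-Hochberg adjustment over all genes and a threshold of 0.05. A depth-adjusted fit had log2 of the genes per cell as a term. Shares between lines were tested with a two-sided exact permutation test over plates, in which the smallest possible p is 0.00126, for genes in at least 10 cells. Shares carry exact 95% intervals (Clopper-Pearson), and the limit beside a count of 0 is 3 cells of the total. The log2(TPM + 1) scale of all differences understates changes of low genes. The within-plate fit without depth, the pool fit and the permutation test were checked on simulated data. For the within-plate fit the cells were drawn at random, so the depth differences between classes were not part of the check. The depth-adjusted fits and the sorter fits were not checked in this way. No cell was removed, no doublet caller was run, and no 2 cells had identical values; the index sequences of 246 of 375 barcode pairs recur on more than 1 plate.

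The text names the members and, for each contrast of cells with and without a member, the 8 largest differences in each direction among genes that passed with and without depth adjustment, plus the 5 genes most correlated with a member; a selection of these is printed. Gene names and products come from the TAIR10.1 annotation, which holds 32548 of the 32833 genes. Alternatives included other pseudocounts, filters, weights, detection limits and each plate or pool left out.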

Additional observations from a re-analysis of the deposited data

Results flagged for a closer look

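Each group of 4 to 10 plates was screened for a plate whose gap to its nearest neighbour was large against the range of the group, a screen that by chance marks about 5% of groups. It marked 7 of 44 groups. SDD1 in ATML1p plates was marked for 1 plate, ML1-6, with a mean of 75.4 TPM, most of it from 1 FAMA cell at 2417 TPM. EPFL9 in TMMp plates was marked on 2 measures for plate TMM5, at 3.08% of cells and 1.18 TPM, the plate that held both TMMp cells with EPFL9. The EPF2 difference to cells with no stage gene was marked at 5.42 for SPCH cells on plate TMM3, where 4 of 5 SPCH cells held EPF2. It was also marked at 4.22 for MUTE cells on plate TMM5 and at 4.09 for MYB60 cells on the same plate. The SDD1 difference between cells with and without EPF2 was marked at 0.59, the 1 plate of 7 where it was positive. The cause of these plate values was not tested.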

How the results depend on the processing

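TPM carry no read counts, cells without a transcript may have held it, stage classes rest on single genes and differ in depth, and plates of a line may share plants. The EPF2 difference in SPCH cells (leave-one-out range 1.76 to 2.33), those of EPF1 in MUTE (3.43 to 4.1) and FAMA cells (2.36 to 2.76) and that of SDD1 in FAMA cells (2.44 to 3.24) kept direction and call under every alternative run. The causes of the changes that follow were not tested. The MUTE against SPCH difference of EPF1 missed the threshold with depth in the model (2.86), with no filter (3.47), in cells with at least 1000 genes (3.51), with stage genes at 10 TPM (3.14) and in leave-one-out fits (3.16 to 3.86). FAMA against SPCH missed it with no filter for EPF2 (-2.23) and SDD1 (2.82); their leave-one-out ranges were -2.53 to -1.75 and 2.50 to 3.42. The reporter signal of EPF2 cells missed it with depth (0.20; leave-one-out 0.25 to 0.37), as did the side scatter of SDD1 cells with depth (0.10), while EPF1 side scatter (0.15 to 0.30) passed without TMM-1.
Between lines, with the plate as unit EPF1 (2.1), EPF2 (2.92), EPFL9 (-2.08) and SDD1 (3.19) passed, as did 13.3% of all genes. The replicate block brought EPF2 (2.28) and SDD1 (3.84) past the threshold, with 9.22% of genes; pools share only a number, and deviations of same-numbered pools correlated at 0.0472. With log2 averaged over cells EPFL9 (-0.45) passed, as did 5.44%; its calls carry no weight, since the filter was met through ATML1p alone. Leaving out a pool leaves 1 pool in a line, so only the differences are given. They ran from 1.38 to 6.31 for SDD1 and from 1.64 to 2.93 for EPF2. For EPF2 the difference was 2.93 without ATML1p pool 1 and 1.64 without ATML1p pool 2. The 6.31 of SDD1 came without ATML1p pool 2, where SDD1 is listed at 0 in the remaining ATML1p pool. EPFL9 could not be fitted without an ATML1p pool. Share differences ran from 5.17 to 7.44 for EPF1, which passed without ML1-6 (6.20% of genes), and from -11.0 to -7.21 for EPFL9, which passed without ML2 (15.3%). This EPFL9 call carries no weight either, since the limit of 10 cells was met through ATML1p alone.
Genes called in cells with EPF2 numbered 1077, with depth 58, with no filter 90, with equal plate weights 580 and in leave-one-out fits 406 to 1051. For EPF1 4622 became 555 with depth and 2645 with no filter. For SDD1 2861 became 292 with depth, 1136 with no filter and 1549 to 2859 in leave-one-out fits. For EPFL9 805 became 0 with no filter, 326 with the member at 10 TPM and 0 to 805 in leave-one-out fits. Members' values that passed in no fit changed sign in 26 cases.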
